A study of Camellia sinensis with 24 samples.

Results

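The genes described here are the tea (Camellia sinensis) members of 3 families tied to jasmonate synthesis and jasmonate repression. They are the 45 genes, of 48505 in the deposited table, whose Pfam annotation names a lipoxygenase domain (16 genes), an allene oxide cyclase domain (4 genes) or a tify domain (25 genes). No gene carried more than 1 of these domains. Their levels in roots were compared over 8 groups, which were formed by the genotypes “1511” (tolerant of low K) and “1601” (intolerant) on 4 K conditions, with 3 libraries in each group.

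Jasmonates are oxygenated lipids that act as hormones in wounding, defense and root growth. A lipoxygenase adds oxygen to linolenic acid in the plastid, allene oxide synthase and allene oxide cyclase convert the product to a cyclic precursor, and a reductase and beta-oxidation in the peroxisome complete jasmonic acid, which is then joined to isoleucine. In Arabidopsis, this conjugate makes the receptor COI1 bind JAZ repressors, which carry a tify domain and a Jas motif. Their degradation frees MYC transcription factors, whose targets include genes of lipoxygenases and of the JAZ proteins themselves. A lipoxygenase domain alone does not say whether the enzyme feeds jasmonate or other oxygenated lipids, and tify proteins with a CCT motif or a GATA zinc finger are not counted among the JAZ repressors.

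All plants had first grown with K for 60 days in hydroponic boxes of 12 plants, with the roots parted over 2 compartments, and then spent 5 days on the treatment. On U.NK the solution of each compartment contained 1 mM K2SO4, and on U.SK it contained 0 mM. In the split treatment a plant had 1 mM on its Sp.NK side and 0 mM on its Sp.SK side, so Sp.NK and Sp.SK libraries come from opposite sides of the same plants and are not independent of each other. Each genotype is a single individual of an F1 cross that was multiplied by cuttings, so a difference between “1511” and “1601” is a difference between these plants only. The labels number the libraries but do not say whether a library is 1 box or part of it, and p-values measure the spread between these libraries.

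The summed gene counts of a library ran from 13214833 to 26309637 (median 18066086), and correlations between replicates ran from 0.923 to 0.982. The biological coefficient of variation within a group was 0.275 to 0.387 in “1511” and 0.176 to 0.301 in “1601”. The summed level of 42 genes of the CASP family, whose founding members shape the Casparian strip of the root endodermis, was 971 to 2411 FPKM per library. It was highest on U.SK of “1511” (2125 to 2411 FPKM, against 971 to 1999 in the other libraries). Of these 42 genes, 1 was at 0 in every library. The summed level of 26 chlorophyll a-b binding proteins, which mark green tissue, was 139 to 405 FPKM in “1511” and 334 to 1876 FPKM in “1601”, and 1 of them was at 0 in every library. That of 5 RuBisCO small subunits was 212 to 743 FPKM over all libraries. The part of tissue composition in the results below was not tested, and in whole roots fewer cells of a type and less RNA per cell cannot be told apart.

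The 16 lipoxygenase genes included 11 that also had the PLAT domain, the lipid-binding front part of a plant lipoxygenase, and 5 without it. Their median length was 2570 bases and their median exon number 9. The 4 allene oxide cyclases were short genes of 720 to 771 coding bases with 2 or 3 exons. The tify genes fell into 9 of JAZ type with a Jas motif, 7 of ZIM type with a CCT motif or a GATA zinc finger, and 9 with neither. Newly assembled from the reads were 2 lipoxygenases and 4 tify genes, and the others were annotated gene models. Enough reads for a test were found for 37 of the 45 members, namely 12 lipoxygenases, 4 allene oxide cyclases and 21 tify genes. None of the 8 untested members had over 41 reads in all 24 libraries together.

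Several members lie side by side. On scaffold 1939 of the tea genome, TEA011776 (bases 369234 to 393614, plus strand) is followed by TEA011765 (425114 to 433998, minus strand) and by a gene that was newly assembled from the reads (449404 to 456993, minus strand), all lipoxygenases. That gene is called the new lipoxygenase of scaffold 1939 here. A short assembled gene with 9 reads in all (450403 to 451392, plus strand) lies inside it. Among tify genes, TEA014541 and TEA014550 are neighbours on scaffold 2731, as are the new JAZ gene of scaffold 6164 (1235346 to 1238390, minus strand) and TEA004474. A further new JAZ gene lies on scaffold 422 (248241 to 266421, minus strand). How reads that match several genes were counted is not given in the sources used here, so the split of reads between neighbouring copies is uncertain. The same holds for 3 members that overlap a gene on the opposite strand, TEA014386 (3909 reads on the other gene in all libraries), TEA002032 (33704 reads) and TEA001414 (26553 reads), since the strand setting of the counting is not given.

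Per length, the tify genes were the most abundant family as a sum and the allene oxide cyclases the least. The summed lipoxygenase level in “1601” was 537 ± 103 FPKM on U.NK, 664 ± 82.2 on Sp.NK, 248 ± 41.4 on Sp.SK and 547 ± 150 on U.SK (mean ± SD, n = 3). In “1511” it was 369 ± 41.6, 373 ± 101, 312 ± 49.6 and 283 ± 37.8 FPKM in the same order. The lowest of the 8 groups was thus Sp.SK of “1601”, whose libraries (201 to 278 FPKM) lay below every other library of “1601” (409 to 748 FPKM). Without TEA025499, the most abundant lipoxygenase, Sp.SK of “1601” was still lowest, at 155 ± 15.6 FPKM against 251 ± 3.25 on U.SK. The summed tify level was highest on U.SK of “1511”, at 1223 ± 45.8 FPKM against 943 ± 59.9 on Sp.SK, and lowest on Sp.SK of “1601”, at 792 ± 36.1 against 907 ± 28.1 on U.SK. The allene oxide cyclase sum ranged from 122 ± 22.3 FPKM on U.SK of “1511” to 227 ± 57.0 on its Sp.NK side, and the other groups lay between. These sums are given as a description with no test.

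**Figure D1:**
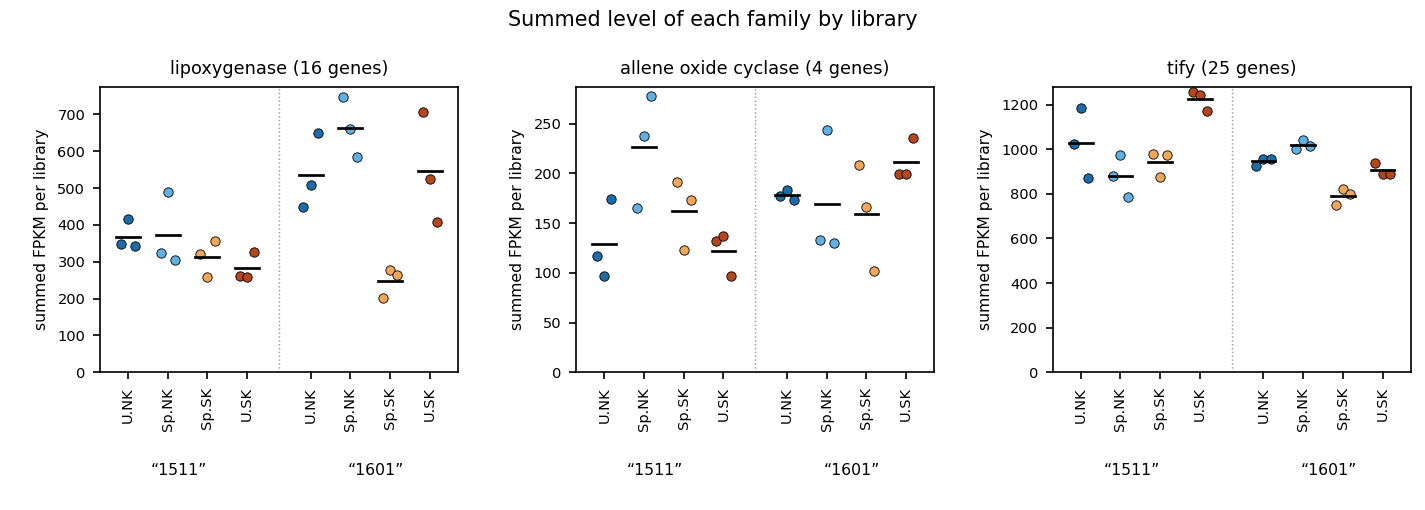
Summed level of each family in FPKM (linear axis from 0) for each of the 24 libraries, by genotype and K condition. Points are libraries, short bars are means of 3. The lipoxygenase sums on Sp.SK of “1601” (201 to 278 FPKM) lie below all other sums of that genotype, and the tify sums on U.SK of “1511” (1171 to 1255 FPKM) lie above those on Sp.SK (874 to 981 FPKM).

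A few genes made most of each sum. TEA025499, a lipoxygenase with PLAT domain, held 32.4% to 70.9% of the lipoxygenase sum as a group mean, followed by TEA009596 and TEA012289. TEA012644 held 55.4% to 78.2% of the allene oxide cyclase sum. The JAZ-type TEA001681 held 26.3% to 36.6% of the tify sum. Its group means ran from 266 ± 18.1 FPKM on U.SK of “1601” to 368 ± 10.8 on U.SK of “1511”, and it was not called in any comparison within a genotype. Of the 37 tested members, 20 were called in at least 1 of the 8 comparisons of conditions within a genotype, made up of 9 lipoxygenases, 2 allene oxide cyclases and 9 tify genes. The share of all genes called in at least 1 of them was not computed. In 1 comparison alone, Sp.SK against U.SK in “1511”, 31.1% of all genes tested were called, so the count is not read as particular to these families.

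**Figure D2:**
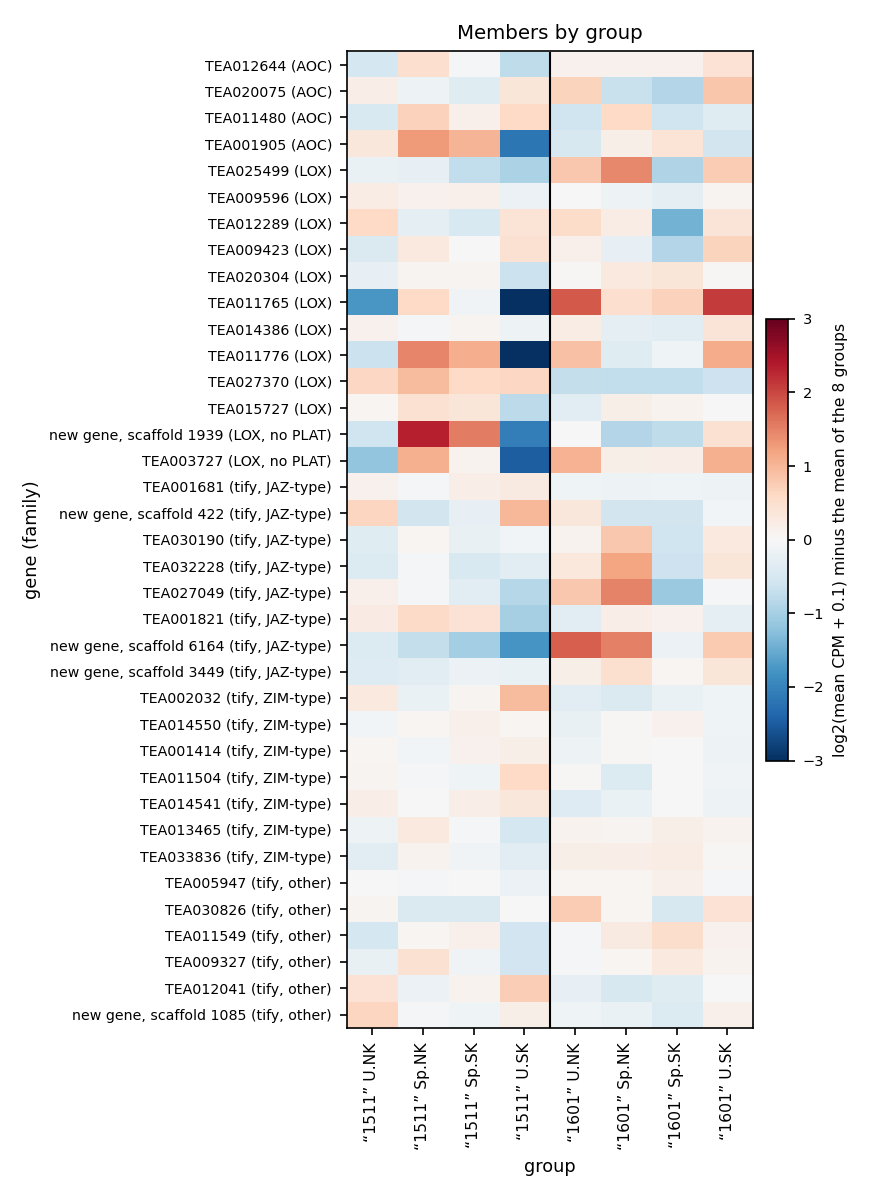
Group means of the 37 tested members, as log2(mean CPM + 0.1) minus the gene's mean over the 8 groups (colour scale from -3 to 3, values beyond it take the end colour). Rows are genes with their family, columns are groups. The deepest blue cells are those of TEA011765 and TEA011776 on U.SK of “1511”, and TEA027370 is red in the 4 columns of “1511” and blue in those of “1601”.

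K starvation of the whole root system lowered 3 members in “1511” and called none in “1601”. The lowered members were the lipoxygenase TEA011776, the allene oxide cyclase TEA001905 and the JAZ-type TEA001821, of 37 tested, where 7.84% of all genes tested were called and 5.88% were lower. Called means an adjusted p under 0.05 (edgeR quasi-likelihood test, Benjamini-Hochberg over 35557 genes). Levels are in CPM, the counts of a gene relative to the TMM-scaled library total. TEA001905 stood at 8.05, 1.68 and 14.9 CPM in the U.NK libraries of “1511” and at 0.654, 1.64 and 1.75 CPM in its U.SK libraries. The groups overlapped through U.NK replicate 2, and the log2 fold change was -2.58 ± 0.53 (approximate SE, adjusted p = 0.00716). TEA001821 stood at 7.38, 4.31 and 10.96 CPM on U.NK and at 2.70, 3.97 and 2.73 CPM on U.SK, without overlap, with a log2 fold change of -1.27 ± 0.37 (adjusted p = 0.0421). TEA011776, with 4 to 7 reads per U.SK library, had a log2 fold change of -3.08 ± 0.95 (adjusted p = 0.0498). Its groups overlapped through U.NK replicate 2, at 0.479 CPM against 0.572, 0.312 and 0.260 CPM on U.SK.

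These 3 calls depended on single libraries. Leaving out U.NK replicate 3 or U.SK replicate 1 left 0 calls, leaving out U.NK replicate 1, U.SK replicate 2 or U.SK replicate 3 left 1, and leaving out U.NK replicate 2 gave 8. The count was 0 with only the libraries compared or with the 12 libraries of “1511”, 1 with a replicate block, 5 by DESeq2 and 15 by limma voom. Here and below, the counts of such alternative fits are of members only. The share of all genes that they called was not compared. The summed levels of both marker lists were higher on U.SK than in any U.NK library of “1511”, at 2125 to 2411 against 1043 to 1999 FPKM for CASP genes and 227 to 323 against 139 to 215 FPKM for chlorophyll a-b binding genes. Of 32 tested CASP genes, 3 were called lower on U.SK and none higher. No chlorophyll a-b binding gene was called, with 6 of 23 at an unadjusted p under 0.05, beside 9000 of 35557 genes tested. The part of both lists in the result was not tested. In “1601”, 0 members were called in this comparison (background 0%), and 0 by DESeq2 or limma voom. By edgeR, 0 members were at an unadjusted p under 0.05, beside 1024 of 35557 genes tested. The log2 fold changes ran from -1.04 to 0.52 there. The difference of the responses between the genotypes called 0 members (background 0.45%). At an unadjusted p under 0.05 were 7 of 37 members, beside 5666 of 35557 genes tested. DESeq2 called 2 members, limma voom 8, and edgeR 4 when U.NK replicate 2 of “1511” was left out.

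On the starved side of a split root system, most called members of “1511” were higher than in a wholly starved one, and those of “1601” were lower. Of the 37 members, 14 were called between Sp.SK and U.SK in “1511” (37.8%, against 31.1% of all genes tested), 10 higher (background 17.4%) and 4 lower (13.8%) on Sp.SK. In “1601”, 5 members were called, all lower on Sp.SK (13.5%, against 6.82% in either direction and 4.24% lower). No member was called in both genotypes, but the share of all genes called in both was not computed. The missing overlap is therefore not read as a difference between the genotypes. The median log2 fold change of the members was 0.19 in “1511” and -0.33 in “1601”, beside medians of 0 over all genes tested. By families, 6 of 12 lipoxygenases rose on Sp.SK of “1511” and none fell, while 3 of 12 fell in “1601” and none rose. With edgeR on the 12 libraries of a genotype the counts were 9 and 11, and with limma voom 15 and 20, so the order of the genotypes by number of calls depends on the fit. The CASP sum moved with the comparison in “1511”, at 989 to 1498 FPKM on Sp.SK and 2125 to 2411 on U.SK, although 9 of 32 tested CASP genes were higher on Sp.SK and 1 was lower. The chlorophyll a-b binding sum was 195 to 221 FPKM on Sp.SK and 227 to 323 on U.SK, also without overlap. The part of these genes in the result was not tested.

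The 3 neighbouring lipoxygenases on scaffold 1939 were nearly silent on U.SK of “1511”. TEA011776 was at 3.25, 0.479 and 5.89 CPM on U.NK, 9.73, 6.14 and 26.4 on Sp.NK, 20.1, 4.56 and 8.13 on Sp.SK, and 0.572, 0.312 and 0.260 on U.SK. Every Sp.SK library was above every U.SK library, and the log2 fold change was 4.86 ± 0.93 (adjusted p = 0.00111). TEA011765 was at 3.20, 0.599 and 5.13 CPM on U.NK, 11.98, 5.19 and 29.2 on Sp.NK, 14.2, 2.80 and 11.2 on Sp.SK, and 0.490, 0.545 and 0.779 on U.SK. Its log2 fold change between Sp.SK and U.SK was 3.94 ± 0.83 (adjusted p = 0.00207), again without overlap. The new lipoxygenase of scaffold 1939 was at 1.81, 0.539 and 5.13 CPM on U.NK, 13.8, 8.18 and 36.4 on Sp.NK, 15.6, 5.17 and 12.8 on Sp.SK, and 0.327, 0.545 and 1.62 on U.SK, with a log2 fold change of 3.70 ± 0.78 (adjusted p = 0.00195). Within U.NK, replicate 2 was low for the 3 genes alike, and within Sp.NK, replicate 3 was high. Each of these 3 calls was kept in all 6 fits that left out a library of either group. With limma voom TEA011765 was not called (adjusted p = 0.0695).

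In “1601” the same genes were not low on U.SK. TEA011765 was at 45.8, 27.4 and 38.0 CPM on U.NK, 7.93, 21.4 and 14.0 on Sp.NK, 16.9, 26.6 and 6.19 on Sp.SK, and 32.5, 44.1 and 56.6 on U.SK. The Sp.SK libraries lay below the U.SK libraries, but the log2 fold change of -1.42 ± 0.64 did not pass the test (adjusted p = 0.183). Those of TEA011776 (-1.27, adjusted p = 0.291) and the new lipoxygenase of scaffold 1939 (-1.26, adjusted p = 0.282) did not either. The summed level of the 3 genes was 0.826 ± 0.294 FPKM on U.SK of “1511” and 33.2 ± 9.99 FPKM on U.SK of “1601”.

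**Figure D3:**
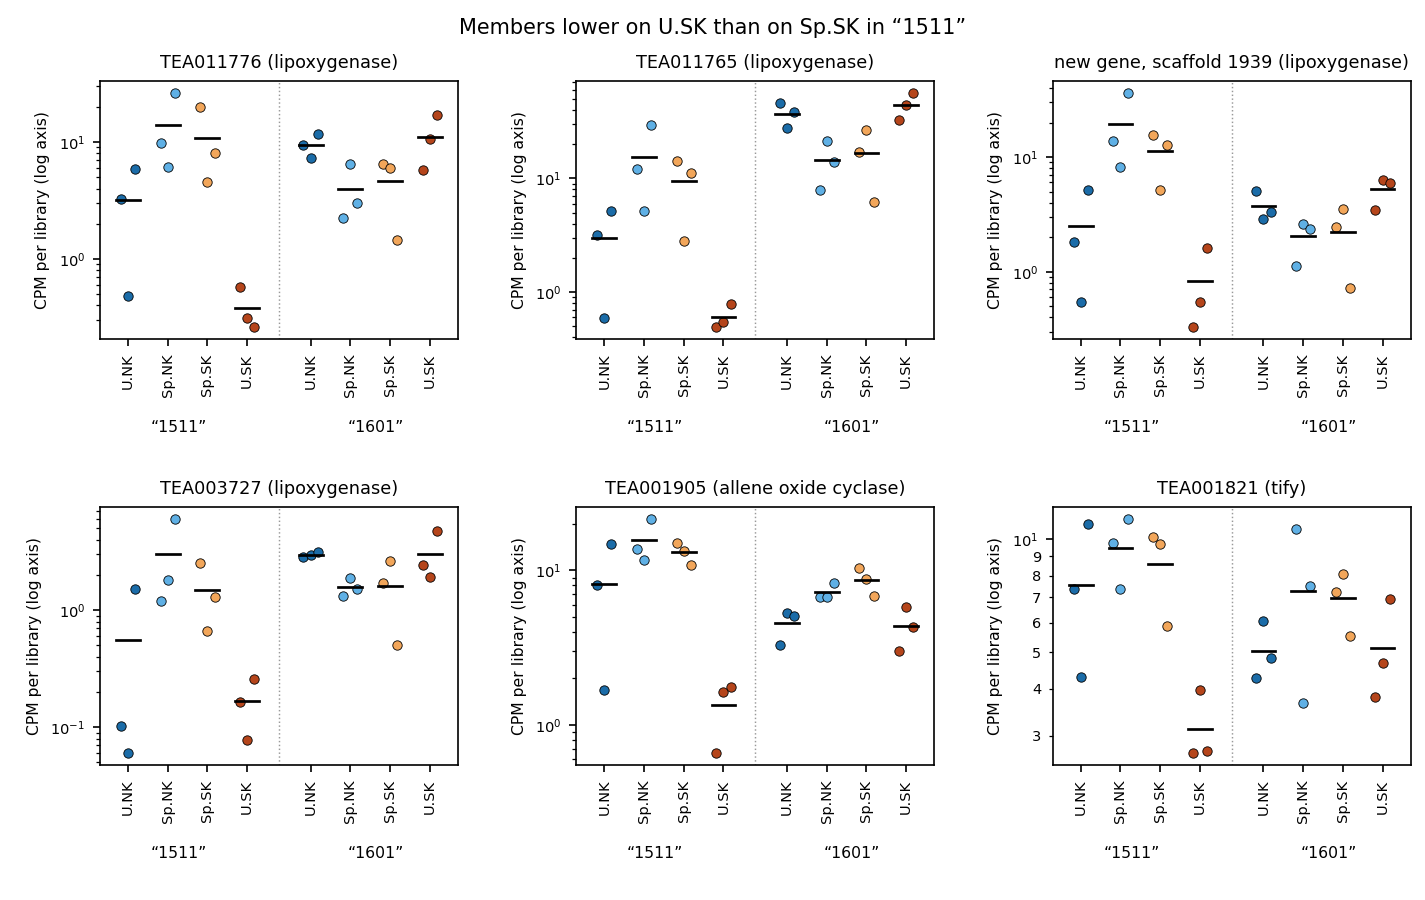
CPM per library (log axes) of 6 members with less on U.SK than on Sp.SK of “1511”, by genotype and K condition. Points are libraries, bars are means of 3. On U.SK of “1511”, TEA011776 is between 0.260 and 0.572 CPM and TEA011765 between 0.490 and 0.779 CPM, below all of their Sp.SK libraries. Their U.SK libraries of “1601” are not low, whereas those of TEA001905 lie below its Sp.SK libraries in “1601” as well.

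The other lipoxygenases that rose on Sp.SK of “1511” had smaller changes or few reads. TEA003727 had only 2, 1 and 4 reads in the U.SK libraries of “1511” and 74, 11 and 23 in its Sp.SK libraries (adjusted p = 0.0230), so its fitted fold change is imprecise and is no bound, and the call was lost without Sp.SK replicate 1, U.SK replicate 1 or U.SK replicate 2. TEA015727 was at 7.45, 5.72 and 6.33 CPM on Sp.SK and 1.72, 2.96 and 4.03 on U.SK, without overlap (log2 fold change 1.16 ± 0.39, adjusted p = 0.0310). TEA020304 was at 61.7, 53.1 and 53.2 CPM on Sp.SK and 34.1, 27.3 and 40.5 on U.SK, also without overlap (0.72 ± 0.20, adjusted p = 0.0116). The call of TEA015727 was lost without Sp.SK replicate 1 or 3 or U.SK replicate 1 or 2, and that of TEA020304 without Sp.SK replicate 1 or U.SK replicate 2. TEA025499, the most abundant lipoxygenase, had a log2 fold change of 0.20 ± 0.46 in “1511” and was not called (adjusted p = 0.777).

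Allene oxide cyclase, a later enzyme of the pathway, was called for 1 gene of 4. TEA001905 was at 14.97, 13.5 and 10.9 CPM on Sp.SK of “1511”, all above the U.SK libraries (0.654 to 1.75 CPM), with a log2 fold change of 3.26 ± 0.53 (adjusted p = 0.000407), and kept its call in all 6 fits that left out a library. On Sp.NK it stood at 13.8, 11.7 and 21.7 CPM. In “1601” it was at 10.3, 8.74 and 6.79 CPM on Sp.SK and 3.02, 5.77 and 4.29 on U.SK, also without overlap and in the same direction, but the log2 fold change of 0.97 ± 0.47 did not pass the test (adjusted p = 0.220). The leading cyclase TEA012644 was at 95.6, 60.0 and 88.3 CPM on Sp.SK and 57.1, 58.9 and 32.3 on U.SK. These groups did not overlap, yet the log2 fold change of 0.72 ± 0.34 did not pass the test (adjusted p = 0.109). TEA020075 (-0.72, adjusted p = 0.0989) and TEA011480 (-0.43, adjusted p = 0.420) were not called.

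Among the tify genes of “1511” the calls went both ways. Lower on Sp.SK were the new JAZ gene of scaffold 422, TEA002032, TEA011504 and TEA012041, and higher were TEA001821, TEA011549 and TEA013465. The new JAZ gene of scaffold 422, second in tify abundance, was at 182, 168 and 181 CPM on Sp.SK and 501, 534 and 206 on U.SK. The groups did not overlap, although U.SK replicate 3 was close to the Sp.SK libraries, and the log2 fold change was -1.22 ± 0.27 (adjusted p = 0.00301). The ZIM-type TEA002032 was at 100, 150 and 175 CPM on Sp.SK and 269, 236 and 273 on U.SK (-0.87 ± 0.22, adjusted p = 0.00665). TEA001821, of JAZ type, was at 10.1, 9.74 and 5.88 CPM on Sp.SK against 2.70 to 3.97 on U.SK (1.46 ± 0.37, adjusted p = 0.00686). These 3 calls were kept in all 6 fits that left out a library. In “1601” none of these tify genes was called, but some moved the same way without overlap. The new JAZ gene of scaffold 422 was at 138, 136 and 152 CPM on Sp.SK of “1601” and 185, 198 and 212 on U.SK. TEA012041 was there at 9.64, 12.8 and 12.6 CPM on Sp.SK and 14.5, 16.4 and 15.3 on U.SK. TEA011549 was there at 40.5, 39.3 and 32.9 CPM on Sp.SK and 26.4, 27.9 and 31.7 on U.SK. The groups of TEA002032, TEA011504, TEA001821 and TEA013465 overlapped.

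The remaining tify calls were smaller and each depended on a library. The ZIM-type TEA011504 (-0.75, adjusted p = 0.0344) was lost without Sp.SK replicate 1 or 3 or U.SK replicate 2. TEA013465, also of ZIM type (0.49, adjusted p = 0.0202), was lost without Sp.SK replicate 3 or U.SK replicate 1 or 3. TEA011549, with a tify domain alone (0.73, adjusted p = 0.0340), was lost without Sp.SK replicate 1 or 2 or U.SK replicate 1 or 2. TEA012041, whose model joins a tify domain to PPR repeats (-0.64, adjusted p = 0.0213), was lost without Sp.SK replicate 1 or 3 or U.SK replicate 1. In number of calls, leaving out Sp.SK replicate 1, U.SK replicate 1 or U.SK replicate 2 left 9 calls in place of 14, and leaving out another library gave 10 to 15.

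In “1601”, the members that fell on Sp.SK were the lipoxygenases TEA025499, TEA012289 and TEA014386, the allene oxide cyclase TEA020075 and the JAZ-type TEA030190, and in each of the 5 the Sp.SK libraries lay below the U.SK libraries. TEA025499 was at 566, 836 and 1198 CPM on U.NK, 1622, 1295 and 1112 on Sp.NK, 147, 298 and 343 on Sp.SK, and 1290, 790 and 438 on U.SK. Its log2 fold change between Sp.SK and U.SK was -1.68 ± 0.47 (adjusted p = 0.0363). TEA012289 was at 100, 135 and 138 CPM on U.NK, 106, 138 and 55.3 on Sp.NK, 32.3, 34.5 and 28.0 on Sp.SK, and 114, 125 and 95.3 on U.SK, a log2 fold change of -1.82 ± 0.35 (adjusted p = 0.00498). TEA020075 was at 11.03, 10.3 and 8.99 CPM on Sp.SK and 29.0, 26.9 and 43.8 on U.SK (-1.72 ± 0.33, adjusted p = 0.00565). It was low on Sp.NK as well, at 7.16, 21.7 and 6.32 CPM, so its low level was not limited to the starved side. The sum of chlorophyll a-b binding genes in “1601” was 607 to 930 FPKM on Sp.SK and 904 to 1876 on U.SK, and its part in the result was not tested.

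TEA030190 was at 44.0, 61.3 and 62.3 CPM on Sp.SK and 129, 104 and 80.1 on U.SK (-0.90 ± 0.25, adjusted p = 0.0333). TEA014386, which overlaps another gene, was at 13.9, 12.9 and 12.3 CPM on Sp.SK and 18.8, 22.5 and 22.6 on U.SK (-0.71 ± 0.14, adjusted p = 0.00506). The calls of TEA012289, TEA014386 and TEA020075 were kept in all 6 fits that left out a library. Those of TEA025499 and TEA030190 were each lost without Sp.SK replicate 1 (adjusted p = 0.181 and 0.170), Sp.SK replicate 2, U.SK replicate 1 (0.192 and 0.161) or U.SK replicate 2, which left 3 calls each time. With the replicate number as a block, TEA025499 (adjusted p = 0.0663) and TEA030190 (0.0588) were not called.

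**Figure D4:**
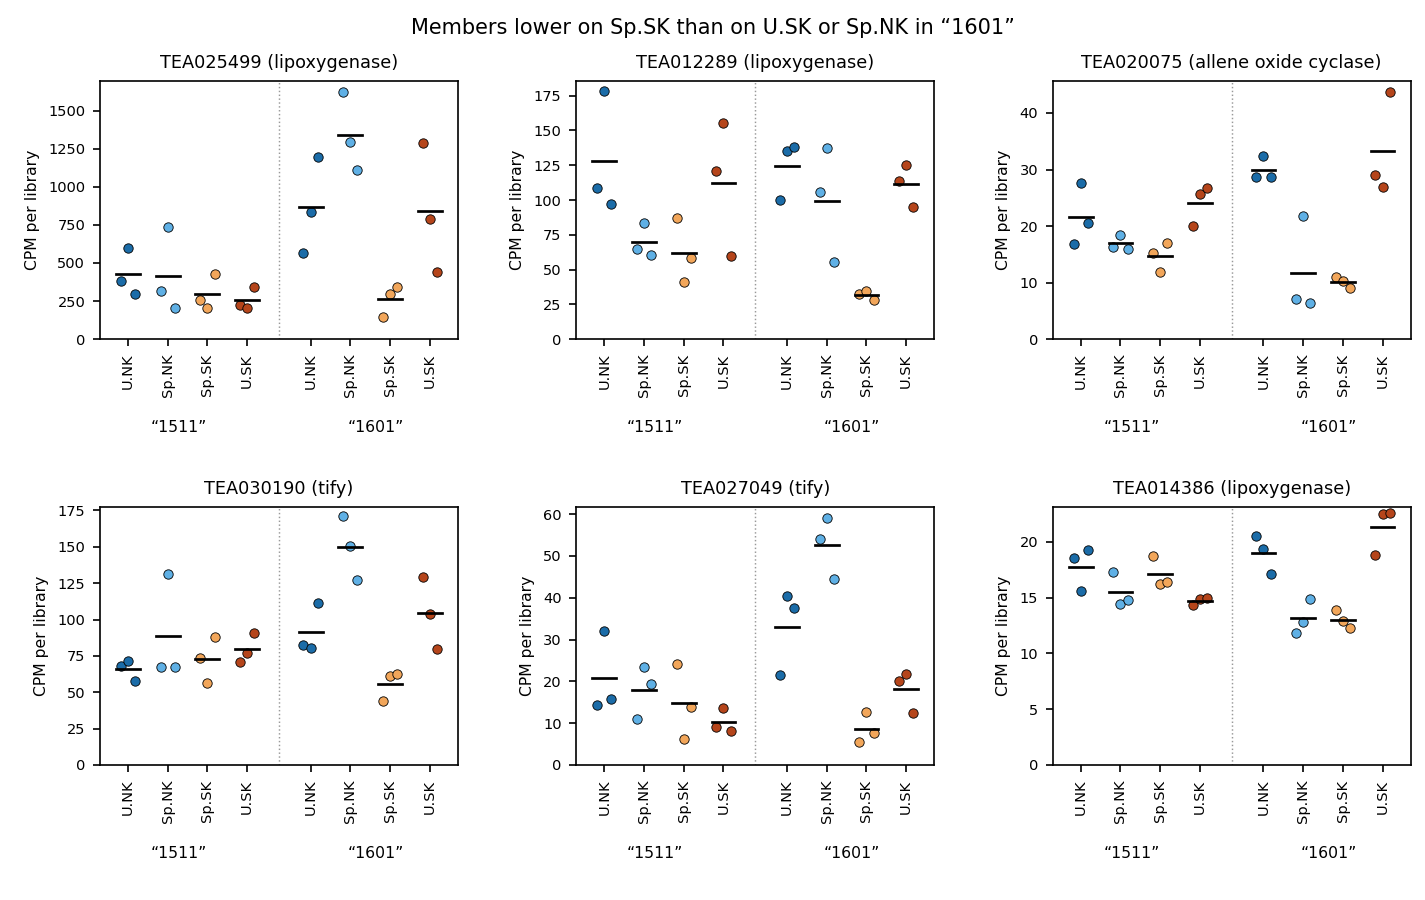
CPM per library (linear axes from 0) of 6 members that fell on Sp.SK of “1601” relative to U.SK or Sp.NK, by genotype and K condition. Points are libraries, bars are means of 3. On Sp.SK of “1601”, TEA012289 is between 28.0 and 34.5 CPM, below the other 9 libraries of the genotype, and TEA025499 is between 147 and 343 CPM.

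Whether the Sp.SK against U.SK response itself differed between the genotypes was tested as the log2 fold change of “1511” minus that of “1601”. It differed for 6 members, 5 lipoxygenases and 1 allene oxide cyclase, with a higher value in “1511” for each (16.2% of the tested members, against 14% of all genes tested in either direction and 9.15% with a higher value). The difference was 6.12 ± 1.17 for TEA011776 (adjusted p = 0.00258), 5.36 ± 1.05 for TEA011765 (adjusted p = 0.00309) and 4.96 ± 1.03 for the new lipoxygenase of scaffold 1939 (adjusted p = 0.00442). It was 2.29 ± 0.70 for TEA001905 (adjusted p = 0.0338) and 0.93 ± 0.19 for TEA014386 (adjusted p = 0.00412). TEA003727, with its few reads on U.SK of “1511”, was also called (adjusted p = 0.0356). No tify gene was called, with 5 called by limma voom and 0 by DESeq2. At an unadjusted p under 0.05 were 4 of 21 tify genes, beside 10479 of 35557 genes tested. For TEA025499 the difference was 1.88 ± 0.65 and missed the threshold (adjusted p = 0.0580), so its fall in “1601” was not shown to differ from “1511”. The same holds for TEA012289, TEA020075 and TEA030190, which were not called either. In “1511”, TEA012289 was at 87.2, 41.2 and 58.2 CPM on Sp.SK and 121, 155 and 60.1 on U.SK. TEA020075 was there at 15.2, 11.8 and 16.9 CPM on Sp.SK and 20.0, 25.6 and 26.7 on U.SK. The groups of TEA012289 and TEA030190 overlapped in “1511”.

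The calls of TEA011776, TEA011765, the new lipoxygenase of scaffold 1939 and TEA014386 were kept in all 12 fits that left out a library of these groups. That of TEA001905 was kept in 4 of them, and was lost without Sp.SK replicate 1 or 2 or U.SK replicate 1 or 2 of “1511”, and without Sp.SK replicate 2 or 3 or U.SK replicate 2 or 3 of “1601” (highest adjusted p = 0.0963). That of TEA003727 was kept in 6, and was lost without Sp.SK replicate 1 or U.SK replicate 1 or 2 of “1511” and without Sp.SK replicate 1 or 3 or U.SK replicate 3 of “1601”.

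**Figure D5:**
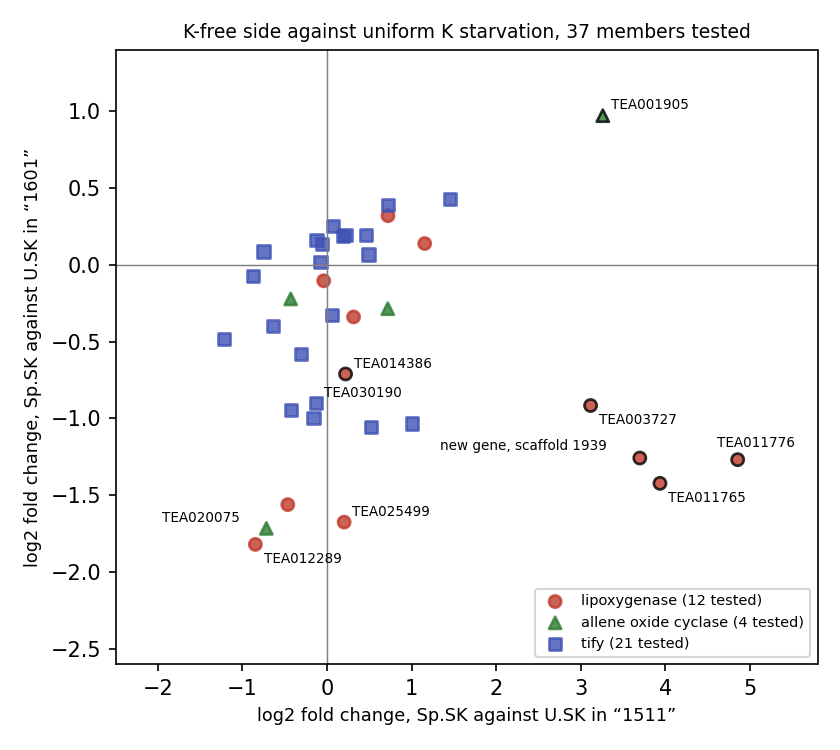
Log2 fold change of Sp.SK against U.SK in “1511” (x axis) and in “1601” (y axis) for the 37 tested members. Shapes mark the families, and names mark members called in “1601” or in the difference between the genotypes, the latter with a black outline. The 3 lipoxygenases of scaffold 1939 lie at the far right and below 0, at 3.70 to 4.86 in “1511” and -1.26 to -1.42 in “1601”.

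The K-supplied side of a split root system was also compared with uniform supply and with its own starved side. Against U.NK, 2 members were called on Sp.NK of “1511” (background 4.61%, of which 2.67% higher and 1.94% lower). The new lipoxygenase of scaffold 1939 rose by a log2 fold change of 2.97 ± 0.70 (adjusted p = 0.0304) and the new JAZ gene of scaffold 422 fell, from 321, 447 and 215 CPM on U.NK to 164, 151 and 110 on Sp.NK (-1.21 ± 0.27, adjusted p = 0.0273). Neither call was kept without U.NK replicate 1, U.NK replicate 2 or Sp.NK replicate 3, which left 0 calls each, and that of the JAZ gene was also lost without Sp.NK replicate 2, which left 1 call. Without U.NK replicate 3 there were 9 calls and without Sp.NK replicate 1 there were 5. The count was 0 with only the libraries compared or with the 12 libraries of “1511”, 5 with a replicate block, 9 by DESeq2 and 14 by limma voom. The chlorophyll a-b binding sum was 247 to 405 FPKM on Sp.NK and 139 to 215 on U.NK of “1511”, without overlap, with 6 of 23 tested genes higher and 1 lower (median log2 fold change 1.04), and its part in the result was not tested. In “1601”, 0 members were called (background 0.9%), with 3 called by DESeq2, 7 by limma voom and 1 by edgeR without Sp.NK replicate 2. At an unadjusted p under 0.05 were 6 members, beside 5649 of 35557 genes tested. The new JAZ gene of scaffold 422 was lower on Sp.NK of “1601” as well, without overlap, though not called. It stood there at 129, 167 and 130 CPM on Sp.NK and 234, 302 and 258 on U.NK. The difference between the genotypes called 0 members (background 0.231%), with 7 at an unadjusted p under 0.05, beside 4261 of all genes tested. DESeq2 called 3 members for this difference and limma voom 7. For it, edgeR called 4 without U.NK replicate 3 of “1511” and 1 without Sp.NK replicate 2 of “1601”.

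Between the sides of the same plants, 4 members were higher on Sp.NK than on Sp.SK in “1601” and none in “1511”. The test treated the sides as independent groups, because the labels do not say which libraries share plants. Its p-values therefore take no account of the pairing of the sides. In “1601”, 1.34% of all genes tested were called and 1.31% were higher on Sp.NK. The largest change was that of the JAZ-type TEA027049, which stood at 54.1, 59.0 and 44.4 CPM on Sp.NK and 5.54, 12.7 and 7.76 on Sp.SK, a log2 fold change of 2.60 ± 0.44 (adjusted p = 0.00655). TEA025499 had one of 2.35 ± 0.48 (adjusted p = 0.0143) and TEA012289 one of 1.66 ± 0.34 (adjusted p = 0.0161), with the CPM values given above. The JAZ-type TEA030190 was at 171, 151 and 127 CPM on Sp.NK against 44.0 to 62.3 on Sp.SK (1.42 ± 0.25, adjusted p = 0.00735). The 4 genes had no overlap between the sides. Without Sp.SK replicate 1, 0 of the 4 calls were kept, with adjusted p-values from 0.0646 for TEA027049 to 0.122 for TEA025499. Without Sp.SK replicate 2 or Sp.NK replicate 1 there were 2, both without TEA025499 and TEA012289. TEA012289 was also lost without Sp.NK replicate 2 or Sp.SK replicate 3. In “1511”, 0 members were called between the sides (background 0%), and 0 by DESeq2 or limma voom. At an unadjusted p under 0.05 was 1 member, beside 1698 of all genes tested. The difference of this contrast between the genotypes was not tested.

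Differences between the genotypes were widespread over the whole table, and with edgeR in none of these comparisons was a larger share of the members called than of all genes. Limma voom called 23 members on U.NK, 14 on Sp.NK and 15 on Sp.SK, and its share over all genes was not compared. Called between “1511” and “1601” were 6 members on U.NK (background 29.8%), 3 higher (14.3%) and 3 lower (15.5%) in “1511”. There were 6 on Sp.NK (25.5%), 2 higher (12.4%) and 4 lower (13%), and 4 on Sp.SK (29.5%), all higher (14.6%). On U.SK there were 20 (54.3%), 8 higher (24.8%) and 12 lower (29.4%). Over the mean of the 4 conditions there were 19 (51.4%, against 61.3%), with 7 higher (28.5%) and 12 lower (32.8%) in “1511”. The lipoxygenase TEA027370 was called on every condition. In “1511” it ran from 6.71 to 11.55 CPM and in “1601” from 2.68 to 3.81 CPM over 12 libraries each, without overlap, and its mean log2 difference was 1.43 ± 0.10 (adjusted p = 2.08e-10). On U.SK, 7 of 12 lipoxygenases were lower in “1511” and TEA027370 was higher. There TEA011765 differed by -6.16 ± 0.86 (adjusted p = 9.40e-06), and TEA025499 by -1.71 ± 0.47 (adjusted p = 0.00464).

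Over the mean of the conditions, the lower members of “1511” included the lipoxygenases TEA011765 (-2.62), TEA003727 (-1.41) and TEA025499 (-1.06), the new JAZ gene of scaffold 6164 (-2.16), the JAZ-type TEA032228 (-0.62) and TEA027049 (-0.57), and the allene oxide cyclase TEA012644 (-0.42). The other 5 lower members, TEA020304, TEA030190, TEA013465, TEA033836 and TEA011549, differed by -0.22 to -0.44. Some of these means hide conditions without a clear difference. TEA011765 and TEA003727 overlapped between the genotypes on Sp.NK and Sp.SK, and TEA025499 and TEA027049 on Sp.SK. On Sp.NK, TEA003727 was at 1.204, 1.83 and 6.07 CPM in “1511” and 1.33, 1.87 and 1.53 in “1601”. On Sp.SK, TEA025499 was at 256, 202 and 429 CPM in “1511” and 147, 298 and 343 in “1601”. TEA003727 had 2, 1 and 26 reads on U.NK of “1511” and 2, 1 and 4 on U.SK, so its mean is imprecise. The new JAZ gene of scaffold 6164 was at 0.0649 to 0.991 CPM in “1511” and 0.160 to 5.66 CPM in “1601” (adjusted p = 2.37e-05), with overlap through Sp.SK. Higher in “1511”, besides TEA027370, were the ZIM-types TEA014541 (0.36) and TEA002032 (0.56), the PPR-bearing TEA012041 (0.54), the cyclase TEA011480 (0.49), the new JAZ gene of scaffold 422 (0.42) and the JAZ-type TEA001681 (0.28). Of the named differences, those of TEA011480, TEA012644, TEA027049, TEA030190 and TEA032228 were lost in 13, 8, 1, 11 and 14 of the 24 fits that left out a library. The counts by condition moved by over 1.5 times without U.NK replicate 3 of “1511” (10 on U.NK) or of “1601” (3), without Sp.NK replicate 1 of “1511” (2 on Sp.NK), without Sp.SK replicate 1 (1 on Sp.SK) or 3 (2) of “1511”, and without Sp.SK replicate 2 (2) or 3 (1) of “1601”.

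The proportions of the neighbouring lipoxygenases of scaffold 1939 also differed by genotype. The FPKM ratio of TEA011765 to the new lipoxygenase of scaffold 1939 was 0.820 to 3.03 over the 12 libraries of “1511” (median 1.53) and 10.1 to 19.5 over those of “1601” (median 14.4). The ranges do not overlap, in spite of the large shifts in level between conditions. The ratio of TEA011776 to the new lipoxygenase of scaffold 1939 was 0.164 to 1.85 (median 0.837) and 1.30 to 3.59 (median 2.05), with some overlap. The ratios are given as a description with no test, and the assignment of reads between the copies was not tested.

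The rest of the jasmonate pathway was described by lists of Pfam domains. Their counts are to be read against the share of all genes tested that was called between Sp.SK and U.SK, which was 31.1% in “1511” (17.4% higher and 13.8% lower) and 6.82% in “1601” (4.24% lower). Of 35557 genes tested, 15079 in “1511” and 8147 in “1601” were at an unadjusted p under 0.05 by edgeR. Reductases of the OYE family, to which the jasmonate precursor reductase belongs, had 3 of 10 tested genes higher and 1 lower on Sp.SK against U.SK in “1511” (median log2 fold change -0.10), and 1 higher in “1601” (median -0.09). Acyl-CoA oxidases, the first enzymes of beta-oxidation, had 1 higher and 3 lower of 6 in “1511” (median -0.38) and none called in “1601” (median 0.09, with 1 at an unadjusted p under 0.05). GH3 enzymes, which join amino acids to jasmonate or to auxin, had 4 higher and 5 lower of 19 in “1511” (median 0.06) and 2 lower in “1601” (median -0.06). Class 3 lipases, among which are enzymes that free linolenic acid, had 5 higher and 5 lower of 44 in “1511” and 8 lower with none higher in “1601”. The median log2 fold change of these lipases was 0.21 in “1511” and -0.18 in “1601”. Over all genes the median was 0 in both genotypes, and the share of the lipases called in “1511” was below that of all genes.

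Downstream, bHLH proteins with the MYC-type front domain, which also include regulators outside jasmonate signalling, had 10 higher and 3 lower of 25 on Sp.SK of “1511” (median 0.63, background 31.1%), and 3 lower in “1601” (median -0.13, background 6.82%). On U.SK against U.NK of “1511”, 9 of them were lower and 1 higher (background 7.84%). SABATH methyltransferases, which hold jasmonate methyltransferases and, in tea, caffeine synthases, had 14 higher and none lower of 24 on Sp.SK of “1511” (median 2.75), and 1 lower in “1601” (median 0.16). On U.SK of “1511”, 7 were lower than on U.NK and none higher. A list of 27 genes with a domain of the NINJA corepressor had 2 higher and 9 lower of 24 tested in “1511” (median -0.44) and none called in “1601” (median -0.06, with 5 at an unadjusted p under 0.05), but most of its genes carry only a domain that PHD-finger proteins share, so the list is not one of NINJA genes.

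Protease inhibitors of the Kunitz and potato inhibitor I types, classic wound and jasmonate responsive genes of leaves, included lower genes on Sp.SK of “1601” as well. Of Kunitz inhibitors, 4 of 7 tested fell on Sp.SK of “1601” against U.SK (median -2.13, where 6.82% of all genes were called). In “1511”, 0 were called (median -0.50, background 31.1%), with 1 at an unadjusted p under 0.05. Of potato inhibitor I genes, 4 of 10 were lower in “1601” (median -1.89) and 1 was higher in “1511” (median -0.03). On Sp.NK against Sp.SK of “1601”, 1 Kunitz inhibitor and 2 potato inhibitor I genes were higher and none lower (background 1.34%). The response differed between the genotypes for 2 genes of each type, with the higher value in “1511” (background 14%).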

How the data were processed

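RNA of tea roots was sequenced in 24 libraries, 3 for each of 8 groups of genotype and K condition, taken from the sample titles. Per the submitters' processing notes and the study's methods, the reads were processed with CASAVA 1.7, aligned with HISAT2 2.0.5 to the scaffold-level tea genome, and supplemented with newly assembled genes. The authors deposited raw counts per gene, and the counting program is not given in the sources used here. FPKM values, which the authors deposited as a further table, were used for sums and for comparing levels between genes.

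Genes were tested in R 4.3.3 with edgeR 4.0.16 (filterByExpr, TMM, glmQLFit and glmQLFTest on 8 group means of 24 libraries, 16 residual degrees of freedom), with 35557 of 48505 genes tested and Benjamini-Hochberg adjustment at 0.05 with no minimum fold change. The CPM values are TMM-scaled. The value after ± of a log2 fold change or difference is its absolute size over the square root of the test's F statistic. It is thus an approximate standard error from a fit over all 8 groups, not the spread of the compared libraries alone. Replicate libraries were no copies of each other (lowest chi-square per gene 9.11). The fit was tested on simulated data. Alternatives were DESeq2 1.42.0, its size factors in edgeR, limma 3.58.1 voom with quality weights, no filter, fewer libraries, a replicate block and each library left out. Named members are all allene oxide cyclases, the 3 of highest mean FPKM in each family, and in each comparison up to 3 called members per family and direction by fold change with a mean of at least 1 CPM, and other called members were named after their values were seen, to account for each call. Genes newly assembled by the authors are called new genes and given by scaffold. The members and lists were chosen with earlier results of these data known. A reference table matched 0 gene identifiers, so no gene name was added.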

Additional observations from a re-analysis of the deposited data

Results flagged for a closer look

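The change between Sp.SK and U.SK differed between the genotypes, by the test of the difference itself, for 6 members. These were 16.2% of the tested members, against 14% of all genes tested in either direction and 9.15% with a higher value in “1511”. As log2 fold change of “1511” minus that of “1601”, it was 6.12 for TEA011776, 5.36 for TEA011765, 4.96 for the new lipoxygenase of scaffold 1939, 4.03 for TEA003727, 2.29 for TEA001905 and 0.93 for TEA014386. The value of TEA003727 rests on 2, 1 and 4 reads in the U.SK libraries of “1511” and is an imprecise fitted value, not a bound. Those of TEA011776 (7, 4 and 4 reads there), TEA011765 (6, 7 and 12) and the new lipoxygenase of scaffold 1939 (4, 7 and 25) are imprecise as well. Of the 12 fits that left out a library, TEA001905 kept its call in 4 and TEA003727 in 6, and the other members in all 12.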

How the results depend on the processing

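The cause of the shifts given here was not tested. With the replicate number as a block within a genotype, calls numbered 1 for U.SK against U.NK in “1511”, 5 for Sp.NK against U.NK in “1511”, 3 for Sp.SK against U.SK in “1601” and 2 for the difference of Sp.NK against U.NK. Whether the numbers pair the libraries was not settled. In 0 of 12 pairs of groups was every same-numbered correlation over 0.1 (-0.29 to 0.493). For U.NK and Sp.NK of “1511”, however, they were 0.066, 0.417 and 0.493, and 5 of 6 best matches were with the same number. With deviations from means of 3 libraries, this rule cannot exclude pairing. DESeq2 called 5 for U.SK against U.NK and 9 for Sp.NK against U.NK in “1511”, 3 for Sp.NK against U.NK in “1601”, and 2 and 3 for the differences of these contrasts. Limma voom called 15 and 14 in “1511”, and in “1601” 20 for Sp.SK against U.SK and 7 for Sp.NK against U.NK, 8, 14 and 7 for the differences of U.SK, Sp.SK and Sp.NK, and 23, 14 and 15 between genotypes on U.NK, Sp.NK and Sp.SK. With only the libraries compared, 0 were called for U.SK or Sp.NK against U.NK in “1511”, and 3 for Sp.NK against U.NK in “1601”. With the 12 libraries of a genotype there were 0, 9 and 0 for U.SK against U.NK, Sp.SK against U.SK and Sp.NK against U.NK in “1511”, and 11 and 2 for the latter pair in “1601”. With a library left out, calls in “1511” ranged from 0 to 8, 9 to 15, 0 to 9 and 0 to 0 for U.SK against U.NK, Sp.SK against U.SK, Sp.NK against U.NK and Sp.NK against Sp.SK, and in “1601” from 0 to 0, 3 to 5, 0 to 1 and 0 to 4. They ranged from 0 to 4, 4 to 9 and 0 to 4 for the differences of the first 3, and between genotypes from 3 to 10 on U.NK, 2 to 8 on Sp.NK, 1 to 5 on Sp.SK, 16 to 22 on U.SK and 16 to 21 for the mean. No named call changed sign under these alternatives. Members with under 10 reads in U.SK libraries of “1511” have imprecise fold changes.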
